A study of Gallus gallus with 14 samples.

Results

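SOX10, EDNRB and PMP22 are best known from the neural crest, yet all have probe sets with clear signal in the pigment epithelium of the developing chick eye. They were chosen by their mean signal on these arrays, together with their known role, so their level is a description here, while their course over embryonic age was tested. By NCBI gene ID they are SOX10 (395573), EDNRB (408082) and PMP22 (417327). The supplied probe table assigns 7 of the 38439 non-control probe sets of the array to these 3 genes, 2 to SOX10, 2 to EDNRB and 3 to PMP22. Of the 7, 6 were bright enough to be tested, beside 23064 tested probe sets in all. SOX10 and EDNRB followed opposite courses. SOX10 was lowest at embryonic day 10 (E10) and high at both E7 and E18, EDNRB was highest at E10 and low at both ends, and PMP22 was highest at E7 and lowest at E18.

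The retinal pigment epithelium (RPE) is a sheet of pigmented cells behind the neural retina that grows out of the optic neuroepithelium and not out of the neural crest. SOX10 is a transcription factor of the SOXE group that sets up neural crest cells and their melanocyte and glial descendants. EDNRB is a receptor on the cell surface that binds endothelins, short peptides made by converting enzymes, and in birds another such receptor, EDNRB2, serves the melanoblasts on their way to the skin. PMP22 is a membrane protein with 4 passes that builds peripheral myelin, belongs to a family with the EMP proteins, and is also known as a growth arrest gene and from epithelial cell contacts.

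RNA of RPE sheets from chicken embryos was hybridized to 14 Affymetrix whole-genome chicken arrays. The ages were E7 with 4 arrays, E10 with 3, E14 with 3 and E18 with 4. Every array carried its own preparation, made from the sheets of 20 to 30 eyes, so each value is a mean over many embryos. The labels name no strain and no treatment, and the number of arrays per age limits the precision of every value below.

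Signals are given as log2 values after quantile normalization, on which the median of every array was 6.88 and probe sets with a mean under 6.2, the filter limit, were left out of the tests. A difference of 1 on this scale is a 2-fold change. The RPE label was borne out by RPE65, the retinoid isomerase of this tissue, with age means of 9.30, 11.58, 13.84 and 15.02 from E7 to E18. On the second principal component 4 arrays stood apart, E7 replicates 1 and 2 and E18 replicates 2 and 3, and results that rest on them are also given without them. These arrays had 3' over 5' signal ratios of the actin control between 1.18 and 1.30, against 1.36 to 1.73 on the other 10. HBA1, an alpha globin of red blood cells, was 11.95 and 12.01 on E7 replicates 1 and 2 and 8.90 and 7.59 on replicates 3 and 4, but at E18 it was the other way, with 9.84 and 9.67 on replicates 2 and 3 and 14.88 and 14.83 on replicates 1 and 4.

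**Figure D1:**
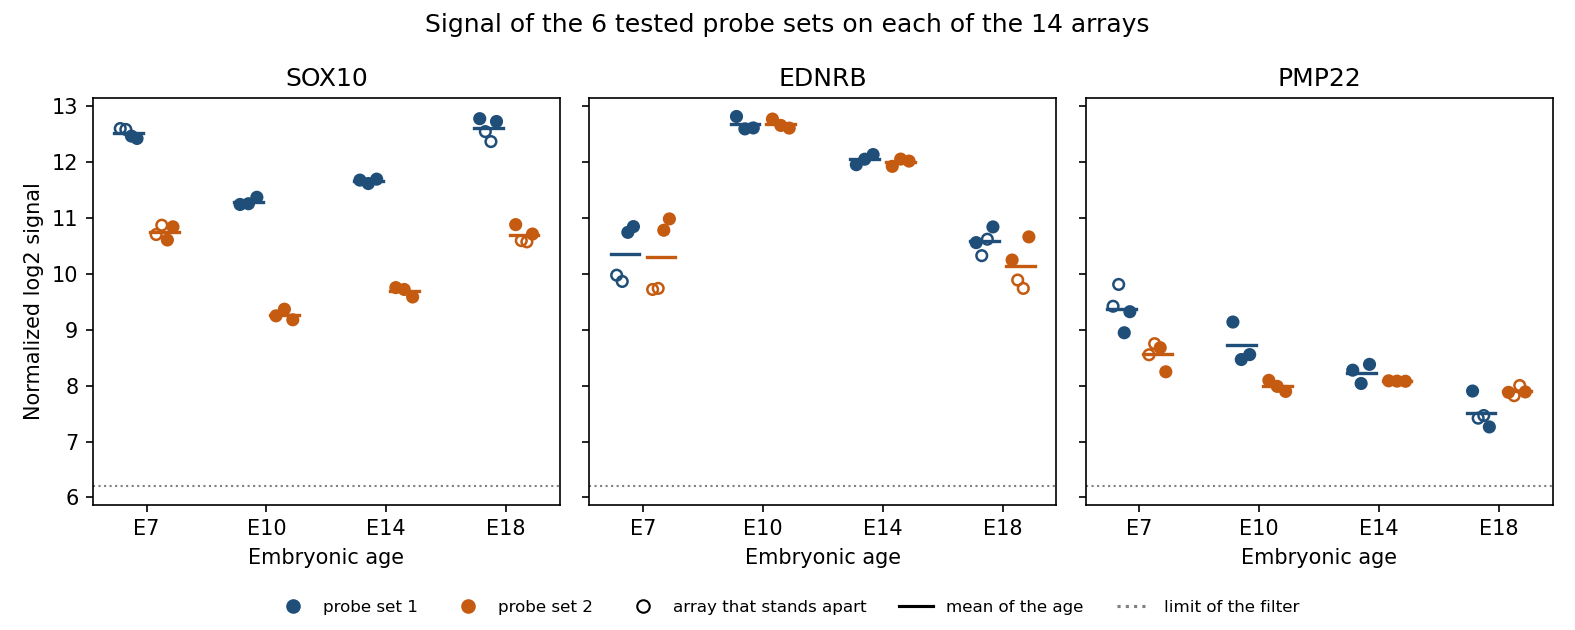
Normalized log2 signal (vertical axis) of the 6 tested probe sets on each of the 14 arrays, by embryonic age (horizontal axis). Points are arrays, open points the 4 arrays that stood apart, bars the age means, and the dotted line the filter limit of 6.2. Both SOX10 probe sets are lowest at E10, both EDNRB probe sets are highest at E10, and PMP22 probe set 1 is lowest at E18.

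SOX10 fell between E7 and E10, was a little higher at E14 and was back near its E7 level by E18. Its brighter probe set (called probe set 1) had log2 signals of 12.60, 12.58, 12.46 and 12.42 on the 4 arrays of E7. At E10 the values were 11.24, 11.25 and 11.37, and at E14 they were 11.67, 11.61 and 11.69. At E18 they were 12.77, 12.54, 12.36 and 12.72. All arrays of E10 and E14 therefore lay below all arrays of E7 and E18, and the arrays of E18 overlapped those of E7. In each age the spread was small, with an SD of 0.09 at E7 (n = 4), 0.07 at E10 (n = 3), 0.04 at E14 (n = 3) and 0.19 at E18 (n = 4).

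At E10, SOX10 averaged 11.29, against 12.51 at E7, a difference of -1.23 ± 0.09 (SE) or 2.34-fold (limma, adjusted p = 3.15e-07). Of all tested probe sets 5.58% fell in this interval, 1.25% by at least 2-fold, and 238 of 23064 had a larger drop. At E14 the mean was 11.66, against 11.29 at E10, a difference of 0.37 ± 0.10 (SE; limma, adjusted p = 0.0324). At E18 it was 12.60, against 11.66 at E14, a 1.92-fold rise of 0.94 ± 0.09 (SE; limma, adjusted p = 2.11e-06). Rises made up 3.28% of all tested probe sets for E14 over E10 and 8.34% for E18 over E14. The rise of E14 over E10 was not called under median centring, without a mean-variance trend, or without any single array of E10 or E14. The fall at E10 and the rise at E18 were called under every setting tried.

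Between E18 and E7 the SOX10 means were 12.60 and 12.51, and the difference of 0.09 ± 0.08 (SE) had a 95% interval of -0.09 to 0.26 (limma, adjusted p = 0.463). Without the 4 arrays that stood apart it was 0.31 with an adjusted p of 0.00314. Whether SOX10 at E18 passed its E7 level thus depended on these arrays, and also on the scaling. On the scale as deposited the difference was 0.26 (adjusted p = 0.0365), where the median of all tested probe sets was -0.20. With median centring it was 0.48 and not called (adjusted p = 0.0666), where that median was 0.01. Among the 5 arrays without an instrument file the difference was -0.09. Over the other spans, SOX10 was lower at E14 than at E7 by -0.85 (limma, adjusted p = 4.55e-06), where 10.6% of probe sets fell. It was higher at E18 than at E10 by 1.31 (adjusted p = 1.79e-08), where 14.9% rose. The difference of E14 from E7 was -0.46 and not called with median centring (adjusted p = 0.147).

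The other SOX10 probe set (probe set 2) followed the same course at a lower signal. Its values were 10.70, 10.87, 10.60 and 10.84 at E7, then 9.25, 9.37 and 9.18 at E10. They were 9.75, 9.72 and 9.58 at E14, then 10.88, 10.59, 10.57 and 10.71 at E18. As with probe set 1, no array of E10 or E14 reached any array of E7 or E18. The differences were -1.49 ± 0.11 for E10 against E7, 0.42 ± 0.11 for E14 against E10 and 1.00 ± 0.11 for E18 against E14 (SE). All of these passed the test (limma, adjusted p = 2.4e-07, 0.0407 and 6.09e-06). For E18 against E7 the difference was -0.07, with a 95% interval of -0.28 to 0.15. Both probe sets end in s_at, the array maker's mark for a set that may match several transcripts.

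EDNRB took the opposite course, with its highest signal at E10. Its brighter probe set (probe set 1) gave 9.97, 9.86, 10.74 and 10.84 on the arrays of E7. At E10 the values were 12.81, 12.59 and 12.61, and at E14 they were 11.95, 12.05 and 12.13. At E18 they were 10.56, 10.32, 10.62 and 10.84. All arrays of E10 lay above all arrays of E14, and all arrays of E14 above all arrays of E7 and E18, which overlapped each other.

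EDNRB averaged 12.67 ± 0.12 (SD, n = 3) at E10, against 10.35 ± 0.51 (SD, n = 4) at E7. The rise of 2.31 ± 0.20 (SE), or 4.97-fold, passed the test (limma, adjusted p = 1.56e-06). Rises made up 6.84% of all tested probe sets in this interval, those of at least 2-fold 2.06%, and 41 probe sets had a larger increase than EDNRB. At E14 the mean was 12.04 ± 0.09 (SD, n = 3), against 12.67 at E10. This difference of -0.63 ± 0.21 (SE) did not pass the test (limma, adjusted p = 0.108). Nor did it on the deposited scale (-0.55, adjusted p = 0.133) or with median centring (-0.31, adjusted p = 0.551). Falls made up 2.48% of all tested probe sets for E14 against E10. A fit on these ages alone called the EDNRB difference (adjusted p = 2.37e-04), as did a fit with array weights (0.0063). Without the 4 arrays that stood apart the adjusted p was 3.30e-04.

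At E18 EDNRB averaged 10.58 ± 0.21 (SD, n = 4), against 12.04 at E14, a 2.75-fold fall of -1.46 ± 0.20 (SE; limma, adjusted p = 6.68e-05). Falls made up 11.2% of all tested probe sets in this interval, and those of at least 2-fold 3.39%. Set against E7, the E18 mean differed by 0.23 ± 0.18 (SE), with a 95% interval of -0.16 to 0.62 (limma, adjusted p = 0.36). Without the 4 arrays that stood apart this difference was -0.09. Over the other spans, EDNRB was higher at E14 than at E7 by 1.69 (limma, adjusted p = 1.26e-05), where 12% of probe sets rose. It was lower at E18 than at E10 by -2.09 (adjusted p = 6.28e-07), where 17.7% fell.

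The wide SD of EDNRB at E7 came from a split among its arrays. Replicates 1 and 2, at 9.97 and 9.86, lay below replicates 3 and 4, at 10.74 and 10.84. Replicates 1 and 2 are the E7 arrays that stood apart, with high HBA1 and low actin ratios, and the part of blood content or RNA quality in the split was not tested. At E18, replicates 2 and 3 had 10.32 and 10.62, and replicates 1 and 4 had 10.56 and 10.84. Without the 4 arrays the rise of E10 over E7 was 1.88, against 2.31 with them, and still passed the test (limma, adjusted p = 7.07e-08).

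The other EDNRB probe set (probe set 2) had 9.72, 9.74, 10.78 and 10.98 at E7 and 12.76, 12.65 and 12.60 at E10. It had 11.92, 12.05 and 12.01 at E14 and 10.24, 9.89, 9.74 and 10.66 at E18. The split at E7 thus appeared with this probe set too, and at E18 its 2 lowest arrays were replicates 2 and 3. It rose 5.17-fold for E10 against E7 (2.37 ± 0.27, SE; limma, adjusted p = 2.57e-05) and fell 3.64-fold for E18 against E14 (-1.86 ± 0.27, SE; adjusted p = 1.28e-04). For E14 against E10 it differed by -0.68 (adjusted p = 0.22), and for E18 against E7 by -0.17, with a 95% interval of -0.71 to 0.36.

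SOX10 and EDNRB thus changed in opposite directions in both outer intervals. Of 23064 tested probe sets, 182 (0.789%) fell for E10 against E7 and rose for E18 against E14, as both SOX10 probe sets did, and 49 (0.212%) also rose for E14 against E10. Another 427 (1.85%) rose and then fell, as both EDNRB probe sets did. Over the 14 arrays the Pearson correlation of the log2 values of SOX10 and EDNRB was -0.95, a description only, since arrays of 1 age share that age. Of 9957 genes, 3 had a more negative correlation with SOX10 than EDNRB had. It was -0.93 on the deposited scale, -0.73 with median centring and -0.99 without the 4 arrays that stood apart. These are bulk sheets, in which fewer cells of a type and less RNA per cell cannot be told apart.

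PMP22 declined with age, at a size that depended on the probe set. Its brightest probe set, probe set 1, had 9.42, 9.81, 8.94 and 9.32 at E7 and 9.14, 8.47 and 8.55 at E10. It had 8.28, 8.04 and 8.38 at E14 and 7.90, 7.42, 7.46 and 7.26 at E18. All arrays of E18 lay below all arrays of E14, and those below all arrays of E10, while E10 replicate 1 overlapped E7. The age means were 9.37 ± 0.35 (SD, n = 4), 8.72 ± 0.36 (n = 3), 8.23 ± 0.18 (n = 3) and 7.51 ± 0.27 (n = 4).

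No single early interval of PMP22 probe set 1 passed the test. E10 differed from E7 by -0.65 ± 0.22 (SE; limma, adjusted p = 0.0678) and E14 from E10 by -0.49 ± 0.24 (adjusted p = 0.297). The later interval did, with E18 lower than E14 by -0.72 ± 0.22 (SE; adjusted p = 0.0315). That call was lost without either of E14 replicates 1 and 3 or any of E18 replicates 2, 3 and 4, and without the 4 arrays that stood apart (-0.65, adjusted p = 0.0967). Over wider spans the falls were larger. E14 was lower than E7 by -1.14 (adjusted p = 0.00126), and E18 was lower than E10 by -1.21 (adjusted p = 5.06e-04). Falls made up 22.3% of all tested probe sets for E18 against E7. Over the whole span, E18 against E7, PMP22 lay 3.63-fold lower, and 411 of 23064 probe sets had a larger drop.

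PMP22 probe set 2 gave another course, with an early step and little after it. It had 8.56 ± 0.22 (SD, n = 4) at E7, 7.99 ± 0.10 (n = 3) at E10, 8.08 ± 0.004 (n = 3) at E14 and 7.90 ± 0.08 (n = 4) at E18. Unlike probe set 1 it fell for E10 against E7 (-0.56 ± 0.16, SE; limma, adjusted p = 0.0253). It differed by 0.09 for E14 against E10 (adjusted p = 0.855) and by -0.18 for E18 against E14 (adjusted p = 0.469). For E18 against E7 it fell by 0.66 on the log2 scale (adjusted p = 0.00156), 1.58-fold. Both probe sets thus fell over the whole span, but the difference between their courses was not tested. The remaining, dimmest probe set lay under the limit of the filter at every age, with means between 4.70 and 4.98, and was not tested.

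Over the 4 ages together, all 6 tested probe sets of the 3 genes changed by limma's moderated F test, where 42.1% of all tested probe sets did. The adjusted p was 1.19e-08 and 1.62e-08 for SOX10, 1.59e-07 and 1.62e-06 for EDNRB, and 1.39e-05 and 0.00661 for PMP22.

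**Figure D2:**
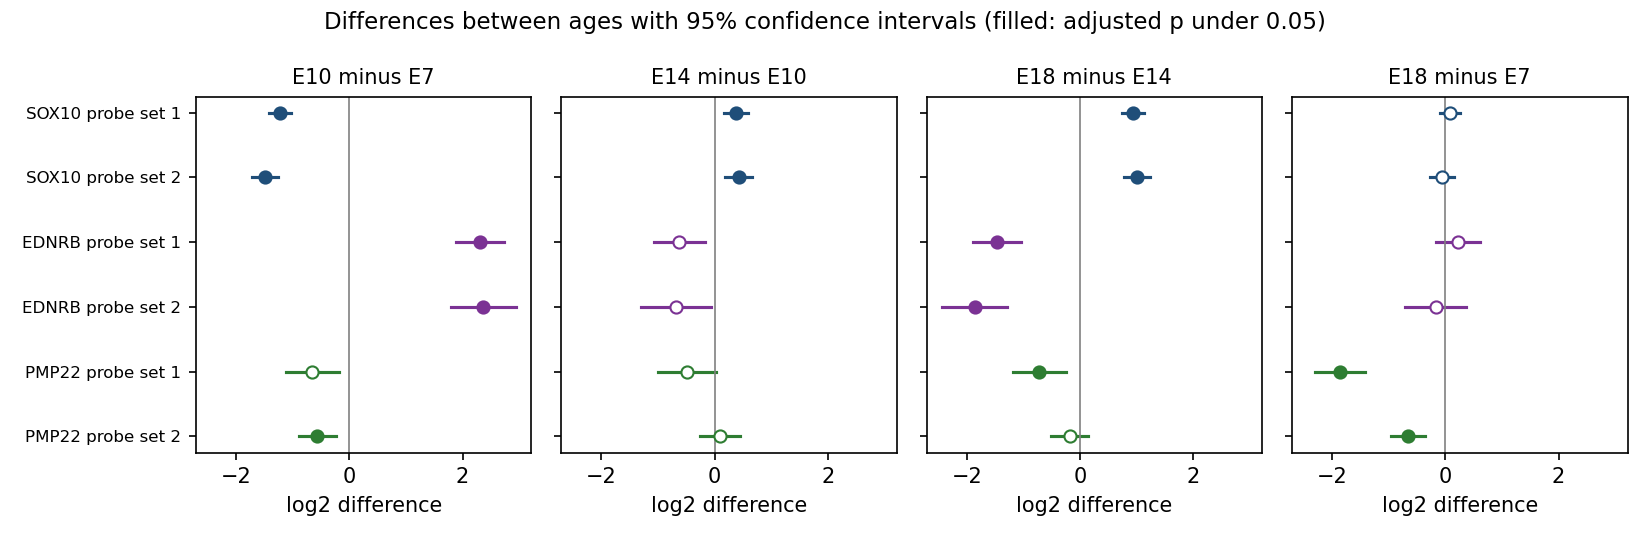
Log2 difference between age means (horizontal axis) for the 6 tested probe sets (vertical axis) in 4 comparisons, with 95% confidence intervals of the limma fit and filled points where the adjusted p was under 0.05. SOX10 and EDNRB have opposite signs for E10 minus E7 and for E18 minus E14, and only PMP22 has filled points for E18 minus E7.

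Most other genes of the endothelin system were too dim to be tested or had no call by the F test. Of the other 10 genes listed, which were ligands, receptors and converting or degrading enzymes, 8 had a probe set and 4 passed the filter. 1 of these 4 changed with age by the F test, against 50.9% of 10206 genes with 1 probe set each, and 4 genes are too few to compare with that share. Among the ligands, EDN1 had age means of 6.65, 6.89, 6.57 and 6.27 (F, adjusted p = 0.606), and EDN2 lay under the limit with means of 5.64 to 6.0. For EDN3 no probe set carried the symbol in the supplied table.

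The other receptors did not share the peak of EDNRB at E10. EDNRB2 had 7.29, 7.83, 7.34 and 6.65 at E7, 5.04, 5.49 and 6.55 at E10, 6.31, 6.17 and 5.0 at E14, and 7.15, 5.16, 6.78 and 6.40 at E18. Its arrays of E10 all lay below those of E7, where EDNRB's lay above, but the difference of -1.59 just missed the threshold (limma, adjusted p = 0.0524). EDNRA, the other mammalian-type endothelin receptor, was too dim to be tested, with means of 6.55, 6.30, 4.73 and 4.22. Its arrays of E14 and E18 all lay below those of E7 and E10.

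Of the enzymes, ECE1, which cleaves endothelins out of their precursors, had means of 8.06, 8.10, 7.44 and 7.98 (F, adjusted p = 0.405). MME (neprilysin), which degrades peptides such as endothelins, was the gene that changed. It had 6.32, 5.82, 6.89 and 6.54 at E7 and 7.53, 7.71 and 7.85 at E10. At E14 it had 8.30, 8.14 and 8.16, and at E18 7.52, 7.48, 7.49 and 7.32. The rise of E10 over E7 was 1.30 (limma, adjusted p = 0.00141), in the same interval as the rise of EDNRB, where 8.78% of genes rose. It was also higher at E18 than at E7, by 1.06 (adjusted p = 8.64e-04), where 21.6% of genes rose and EDNRB did not differ. The fall of E18 against E14 (-0.74, adjusted p = 0.0347) was lost in 4 of 10 other settings. ECEL1 and MMEL1 lay under the limit.

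The closest relatives of SOX10 differed less at E10 than it did, a comparison between genes that was not tested. SOX8, also of the SOXE group, had age means of 12.17, 11.83, 12.23 and 12.21. It fell by 0.34 for E10 against E7 (limma, adjusted p = 0.0121) and rose by 0.40 for E14 against E10 (adjusted p = 0.0132). In that last interval 4.65% of genes rose. Both calls were lost under median centring, without a trend and without E10 replicate 1. SOX9, the remaining SOXE gene, had 11.64, 11.86, 12.46 and 11.99, highest at E14, and changed by the F test (adjusted p = 0.0134) with no call between adjacent ages.

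**Figure D3:**
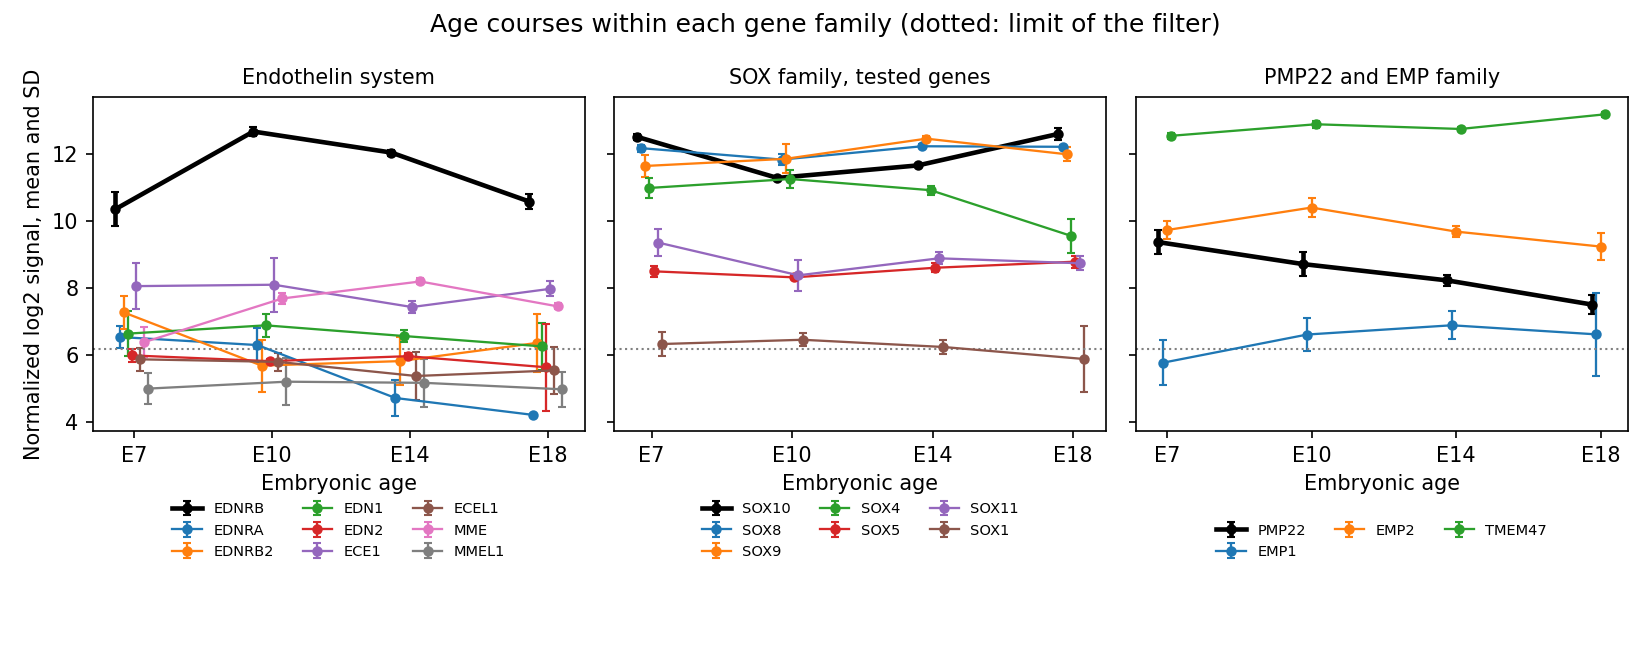
Age means of the normalized log2 signal with SD (vertical axis) by embryonic age (horizontal axis) for EDNRB and the endothelin genes, for SOX10 and the tested SOX genes, and for PMP22 and its relatives. Black lines are EDNRB, SOX10 and PMP22, the dotted line is the filter limit, and levels of different genes are not comparable. EDNRB peaks at 12.67 at E10, SOX10 is lowest at 11.29 at E10, and PMP22 reaches 7.51 at E18 while TMEM47 reaches 13.18.

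Of the other 16 SOX genes listed, 14 had a probe set, 6 passed the filter and 4 changed with age, where 50.9% of genes did. SOX4, a SOXC gene active in progenitors, fell by 1.43 on the log2 scale for E18 against E7 (limma, adjusted p = 3.49e-05) and by 1.36 for E18 against E14, where SOX10 rose. SOX11, of the same group and named after its values were seen, fell by 0.98 for E10 against E7 (adjusted p = 0.00972), a call that was lost without the 4 arrays that stood apart. None of the 6 rose for E18 against E14, where 9.79% of genes did.

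Of the relatives of PMP22, 3 of 6 had a probe set, and none of these fell steadily with age. EMP1 had means of 5.78, 6.62, 6.89 and 6.62 (F, adjusted p = 0.33). EMP2, a membrane protein of epithelia, had 9.73, 10.40, 9.69 and 9.24, with a rise of 0.67 for E10 against E7 (adjusted p = 0.0384) and a fall of 0.49 for E18 against E7 (adjusted p = 0.0445). The first call was lost in 7 and the second in 5 of 10 other settings. TMEM47, a junction-associated protein of the same superfamily, went against PMP22. It had 13.08, 13.22, 13.26 and 13.16 at E18, all above its values at E7 of 12.62, 12.44, 12.49 and 12.61, a rise of 0.64 (limma, adjusted p = 7.7e-07) where PMP22 fell. All 3 of its probe sets rose. EMP3, LIM2 and PERP had no probe set with that symbol.

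As PMP22 is also counted among growth arrest genes, 11 others were listed, of which 9 had a probe set, 6 passed the filter and 4 changed, where 50.9% of genes did. By the brightest probe set of each gene, 3 of the 6 rose for E18 against E7 and none fell, where 21.6% of genes rose and 26.7% fell. BTG1 rose by 0.42 and BTG2 by 1.15, both antiproliferative genes. CDKN1B, an inhibitor of the cell cycle kinases, followed a course like that of EDNRB, with a rise of 0.94 for E10 against E7 (adjusted p = 9.7e-05) and a fall of 1.11 for E18 against E14 (adjusted p = 9.62e-06). Its arrays had 13.61, 13.55 and 13.55 at E10, against 12.56, 12.42, 12.85 and 12.70 at E7. Its other probe set was called in the same directions in these intervals, and was also lower at E18 than at E7 by -0.45 (adjusted p = 9.9e-05).

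Other genes of neural crest cells changed about as often as genes in general. All 22 other listed specifiers had a probe set, 13 passed the filter and 7 changed with age, where 50.9% of genes did. The rest of the list stayed under the filter limit in their mean over the arrays. They were FOXD3, PAX3, PAX7, TWIST1, NGFR, SNAI2, MYB, CDH6 and CDH7. Among those that passed, SOX8 had age means of 11.83 to 12.23 and SOX9 of 11.64 to 12.46. ETS1 had 9.39 to 9.97, MSX1 8.49 to 9.31 and DLX5 8.11 to 8.53, these 3 named after their values were seen. For E10 against E7, 1 of the 13 rose and 2 fell, near the shares of 8.78% and 8.08% over all genes, with a median of 0.21, beside -0.01 over all genes. B3GAT1, the enzyme behind the HNK-1 epitope of migrating crest cells, fell by 1.86 for E18 against E7 (limma, adjusted p = 1.42e-05). SNAI1 rose by 0.70 in that span (adjusted p = 0.037), a call lost in 4 of 10 other settings. ID2, the brightest, had means of 14.08 to 14.46 by its main probe set, which did not pass the F test (adjusted p = 0.0919). Its other probe sets differed, and those ranked 2 and 3 by signal fell for E18 against E7, by 0.53 (adjusted p = 0.0013) and 1.52 (adjusted p = 1.49e-05).

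SOX10 also marks melanocytes, which lie in the choroid next to the RPE. Of 6 genes with a probe set on a list meant to be absent from pigment epithelium, KIT, PAX3, IRF4 and FOXD3 were too dim to be tested. KIT, the receptor melanoblasts depend on, had age means of 4.42 to 5.29, and FOXD3 had 4.65 to 4.96. PAX3 had means of 5.31, 4.95, 5.90 and 6.11. IRF4, a regulator of pigmentation, had 4.67, 5.33, 4.80 and 6.31, with all arrays of E18 above those of E14 and E7. The remaining gene was EDNRB2, whose arrays of E10 lay below those of E7, as SOX10's did, but with no call (limma, adjusted p = 0.0524). MLANA, on the same list, was bright at every age, with means of 14.20, 14.40, 14.42 and 13.97, so the list is not specific in these sheets. The summed signal of the 6 genes, almost all from MLANA, was 18413 to 20105 at E7, 20227 to 23114 at E10, 21580 to 22808 at E14 and 15987 to 16621 at E18. Of 16 melanocyte genes with a probe set, 12 passed the filter. For E10 against E7, where SOX10 fell, 4 of the 12 rose and none fell, where 8.78% of genes rose and 8.08% fell. These rises were small, between 0.14 and 0.20 on the log2 scale. Those of MLANA and TYR were lost in 5 and 7 of 10 other settings. None of the 12 rose and 4 fell for E18 against E14, where 9.79% of genes rose and 15.1% fell. The falls of MLANA, TYR and OCA2 in this interval were lost under median centring. Most of the summed signal of the 16 genes came from genes also listed for pigment epithelium, such as DCT and TYRP1. The sum was 180414 to 186008 at E7 and 195551 to 200783 at E10. It was 198982 to 203643 at E14 and 171041 to 180481 at E18. The part of melanocytes in the course of SOX10 was not tested.

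SOX10 and PMP22 are also expressed by Schwann cells. Of 10 other Schwann cell and satellite glia genes with a probe set, 5 passed the filter and 3 changed, where 50.9% of genes did. CDH19 and NGFR, which mark these cells, had means of 6.0 to 6.26 and 5.29 to 5.93, at or under the limit. S100B and DRP2 of the same list, named after their values were seen, lay above it at every age. Their means were 6.90 to 7.20 and 6.72 to 7.58. FABP7 fell by 1.95 for E10 against E7 (limma, adjusted p = 0.0419) and by 2.34 for E18 against E7 (adjusted p = 0.00271), but the first call was lost in 5 of 10 other settings and without any of 8 single arrays, and the second without the 4 arrays that stood apart. The 3 probe sets of MBP, a myelin protein, went different ways for E18 against E7, with differences of -0.20, 0.25 and 1.80, of which only the last passed the test. The summed signal of the 10 genes was 1307 to 1846 at E7, 1353 to 1666 at E10, 1336 to 1533 at E14 and 1041 to 1188 at E18. Its range at E18 lay below all others, as that of PMP22 probe set 1 did, and its part in the fall of PMP22 was not tested. MBP, the brightest of the 10 genes, enters the sum by its brightest probe set. That probe set differed by -0.70 for E18 against E14 (limma, adjusted p = 0.0236), a call lost without the 4 arrays that stood apart. The dimmest MBP probe set rose by 1.45 in the same interval (adjusted p = 5.62e-04).

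Oligodendrocytes express SOX10 too, in the optic nerve and retina of birds. Of 7 other genes of this lineage with a probe set, 4 passed the filter and 2 changed, where 50.9% of genes did. UGT8, which makes the galactolipids of myelin, had means of 9.59, 8.69, 9.08 and 9.45 and fell by 0.90 for E10 against E7 (adjusted p = 0.00459), a call lost with the instrument file as a block. It did not pass the test for E18 against E14 (0.38, adjusted p = 0.193). For E18 against E10 it was higher by 0.77 (limma, adjusted p = 0.00534), as SOX10 was, where 14.9% of probe sets rose. OLIG2 had 8.0, 7.96, 7.39 and 7.90 (F, adjusted p = 0.0761), while MOG and CNP were too dim to be tested. The summed signal of the 7 genes was 1496 to 1979 at E7, 1451 to 1868 at E10, 1602 to 1746 at E14 and 1493 to 1914 at E18, with ranges that overlapped. Of 9 Müller glia and astrocyte genes with a probe set, 6 passed the filter and 3 changed. Among these NES, an intermediate filament of progenitors, fell by 1.54 for E10 against E7 (limma, adjusted p = 0.0061), to a mean of 6.0, under the limit. That call was lost in 1 of 10 other settings. VIM was higher on every array of E10 than on any of E7, with no call (0.19, adjusted p = 0.0518). The summed signal of the 9 genes, almost all from VIM and GLUL, was 32313 to 35586 at E7 and 37998 to 41260 at E10. It was 32796 to 37056 at E14 and 33314 to 40675 at E18, and its part in the course of SOX10 was not tested.

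**Figure D4:**
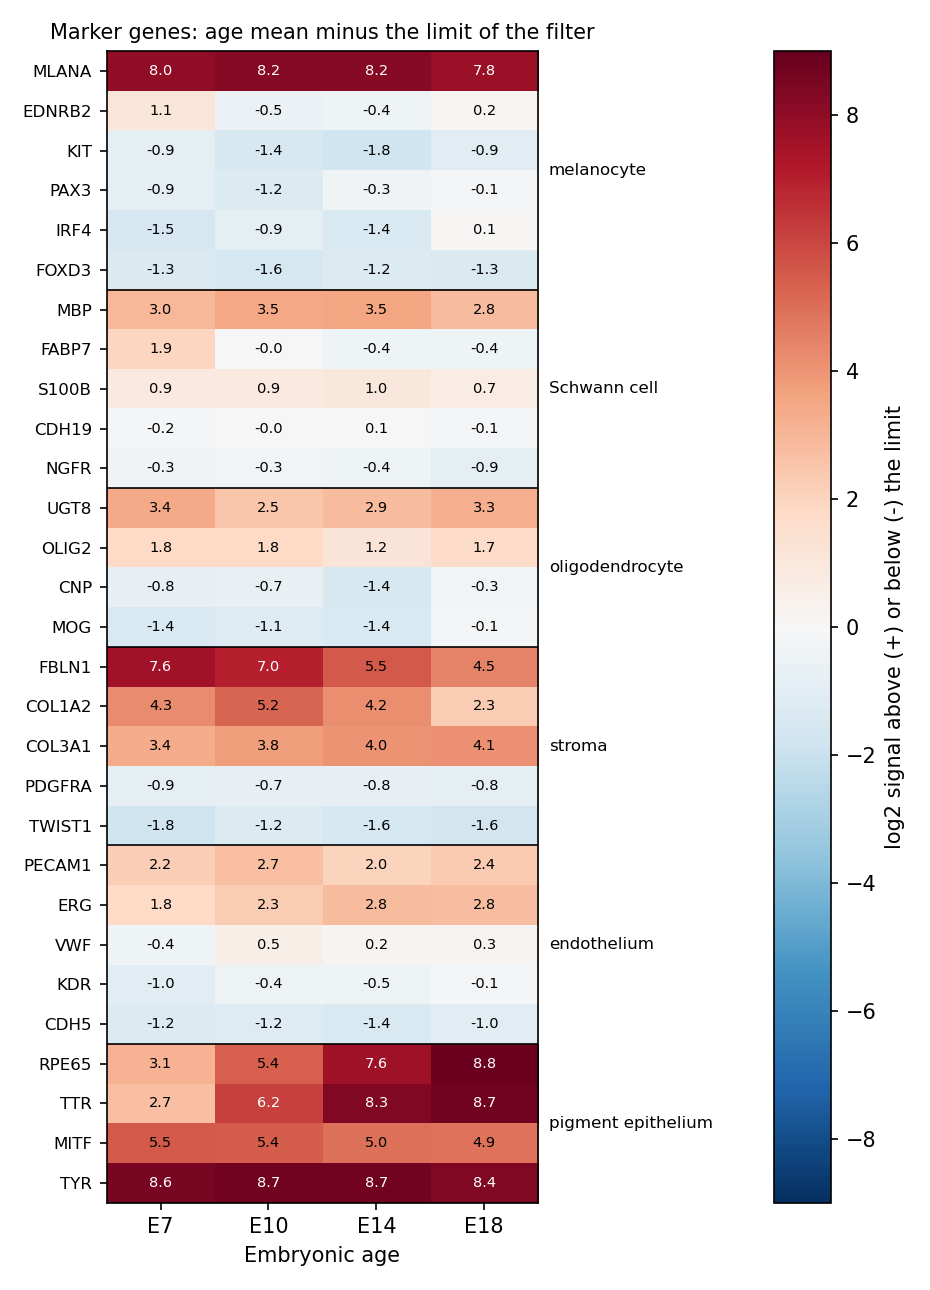
Age mean of the normalized log2 signal minus the filter limit (colour and number) for marker genes of 6 cell types (vertical axis) by embryonic age (horizontal axis). The melanocyte genes KIT and FOXD3, the mesenchymal genes PDGFRA and TWIST1 and the endothelial gene CDH5 are under the limit at every age. MLANA, the glial genes MBP, S100B, UGT8 and OLIG2, and FBLN1, COL1A2, COL3A1, PECAM1, ERG, RPE65, TTR, MITF and TYR lie above it at every age.

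Among genes that SOX10 is known to regulate in mammals, calls went both ways for E10 against E7. For E18 against E14 and for E18 against E7 they were falls only, by the brightest probe set of each gene. The dimmest probe set of MBP, one of these genes, rose in both, by 1.45 (limma, adjusted p = 5.62e-04) and 1.80 (adjusted p = 9.89e-06). RET, named after its values were seen, fell in both by its brightest probe set. Its other tested probe set had no call (0.11 and -0.14). Of 9 such genes with a probe set beside SOX10 and EDNRB, 8 passed the filter and 6 changed with age, where 50.9% of genes did. For E10 against E7, 2 of the 8 rose and 1 fell, where 8.78% of genes rose and 8.08% fell. TYR, which was among those that rose, did so by 0.14, a call lost in 7 of 10 other settings. The gene that fell was GJB1, a connexin of myelinating glia (-0.98, adjusted p = 0.0186), a call lost under median centring. For E18 against E14 none of the 8 rose and 4 fell, where 9.79% of genes rose and 15.1% fell, so that no rise among 8 is close to the share over all genes. The median was -0.31, beside -0.07 over all genes. The fall of GJB1 in this interval (-0.87, limma, adjusted p = 0.0248) was lost in 4 of 10 other settings. Both this fall and that of MBP were lost without the 4 arrays that stood apart, and that of TYR under median centring. For E18 against E7 none of the 8 rose and 4 fell, where 21.6% of genes rose and 26.7% fell. GJB1 was lower at E18 than at E7 by -1.52 (limma, adjusted p = 7.12e-05) and MITF, the regulator of pigment cell fate, by -0.65 (adjusted p = 4.69e-04), where SOX10 did not differ. The fall of MITF was lost under median centring. TYR, the tyrosinase that starts melanin synthesis, was lower by -0.19 (adjusted p = 9.6e-04), but with median centring it was 0.03 higher.

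Stromal genes moved in both directions, while their summed signal, most of it from FBLN1, was lower at each later age. Of 14 with a probe set 8 passed the filter, and for E18 against E7 2 rose and 2 fell with a median of 0.34, where 21.6% of genes rose and 26.7% fell. The summed signal of 14 genes of choroidal stroma and periocular mesenchyme was 16007 to 17336 at E7, 13501 to 13766 at E10, 6679 to 7034 at E14 and 3631 to 5124 at E18. FBLN1, a matrix protein, was lower at E18 than at E7 by -3.14 (limma, adjusted p = 1.32e-15), and the collagen gene COL1A2 by -2.0 (adjusted p = 1.87e-07). The collagen genes COL3A1 and COL1A1, the second named after its values were seen, were higher at E18 than at E7 by 0.77 (adjusted p = 6.61e-05) and 1.1 (adjusted p = 0.0291). The other tested COL3A1 probe sets differed by 0.34, -0.55 and 0.26 with no call, and COL1A1 did not pass the F test (adjusted p = 0.0563). PDGFRA and TWIST1, which mark mesenchymal cells, were under the limit at every age. Other genes of this list, named after their values were seen, were not. PDGFRB had means of 7.03 to 7.35 and PRRX1 of 6.36 to 7.25. LUM and POSTN, too dim in their mean over the arrays to be tested, went from 4.43 at E7 to 6.66 at E18 and from 5.22 at E7 to 7.74 at E14. The part of stroma in the fall of PMP22 was not tested.

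EDNRB is also found in endothelium, as known from mammals. Of 14 endothelial genes with a probe set, 8 passed the filter and 2 changed, where 50.9% of genes did. None of the 8 had a call for E10 against E7, where 8.78% of genes rose and 8.08% fell, so that no call among 8 is close to these shares. Their median in this interval was 0.52, beside -0.01 over all genes. CDH5, the cadherin of endothelial junctions, had age means of 4.80 to 5.21. PECAM1 had 8.41, 8.92, 8.19 and 8.57, with every array of E10 above those of E7 but no call (limma, adjusted p = 0.0666). For E14 against E10 it differed by -0.74 (adjusted p = 0.0271). That call was lost under median centring and without any of 5 single arrays, and its other probe sets had none. ERG had 8.01, 8.49, 9.02 and 8.96 and was higher at E18 than at E7 by 0.94 (adjusted p = 0.0033). The summed signal of the 14 genes was 1301 to 1467 at E7, 1650 to 1863 at E10, 1385 to 1814 at E14 and 1506 to 2272 at E18. It was higher on every array of E10 than on any of E7, and its part in the rise of EDNRB was not tested. The 7 erythrocyte genes summed to 953 to 7505 at E7, 760 to 1120 at E10, 12222 to 12832 at E14 and 1488 to 47849 at E18. All 14 pigment epithelium genes with a probe set passed the filter, and for E18 against E7 8 of them rose and 2 fell, where 21.6% of genes rose and 26.7% fell.

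The genes most like each of the 3 in their course were sought over the 14 arrays, by Pearson's r of log2 values with probe set 1 over 9957 genes. For SOX10 the highest were MMD (r = 0.98), the scramblase PLSCR1 (0.95), the small GTPase RAB39B (0.94), NACC2 (0.93) and the RNA-binding protein KHDRBS3 (0.92). MMD had means of 12.37 at E7, 11.91 at E10 and 12.45 at E18, a drop at E10 and a return by E18 as in SOX10, but with a smaller swing. The most opposed were the protease ADAMTS5 (-0.96), the peroxisomal carrier SLC25A17 (-0.95) and the sorting nexin SNX9 (-0.95), of which the last fell to -0.31 under median centring.

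For EDNRB the highest were the palmitoyltransferase ZDHHC21 (0.98), IGFBP3 (0.97), ITIH5 (0.96), SLC25A17 (0.96) and the ciliary transport protein IFT88 (0.96). ZDHHC21 had means of 8.65, 10.31, 10.04 and 8.65, a peak at E10 and a return by E18. CUL4A (-0.98), MESDC2 (-0.98) and KHDRBS3 (-0.97) were the most opposed. SLC25A17 and KHDRBS3 thus stood at opposite ends of the lists of SOX10 and EDNRB, although the r of SLC25A17 with SOX10 was -0.56 under median centring. For MESDC2 the correlation was -0.51 under median centring.

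For PMP22 the highest were HNRNPM, TDG, NCL, LGR4 and ELAVL4, with r between 0.96 and 0.97, and the most opposed TMTC1, NIT1 and RNF103. NCL, the nucleolar protein nucleolin, had means of 13.67, 12.99, 12.76 and 12.19, and ELAVL4, an RNA-binding protein of neurons, had 10.51, 9.54, 8.62 and 7.40. Both were thus highest at E7 and lowest at E18, as was PMP22. Under median centring the r of HNRNPM was 0.65. PMP22 itself had an r of -0.10 with SOX10 and -0.05 with EDNRB, and so followed neither of them. In all these correlations arrays of 1 age share that age, and a close course says nothing of shared control.

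**Figure D5:**
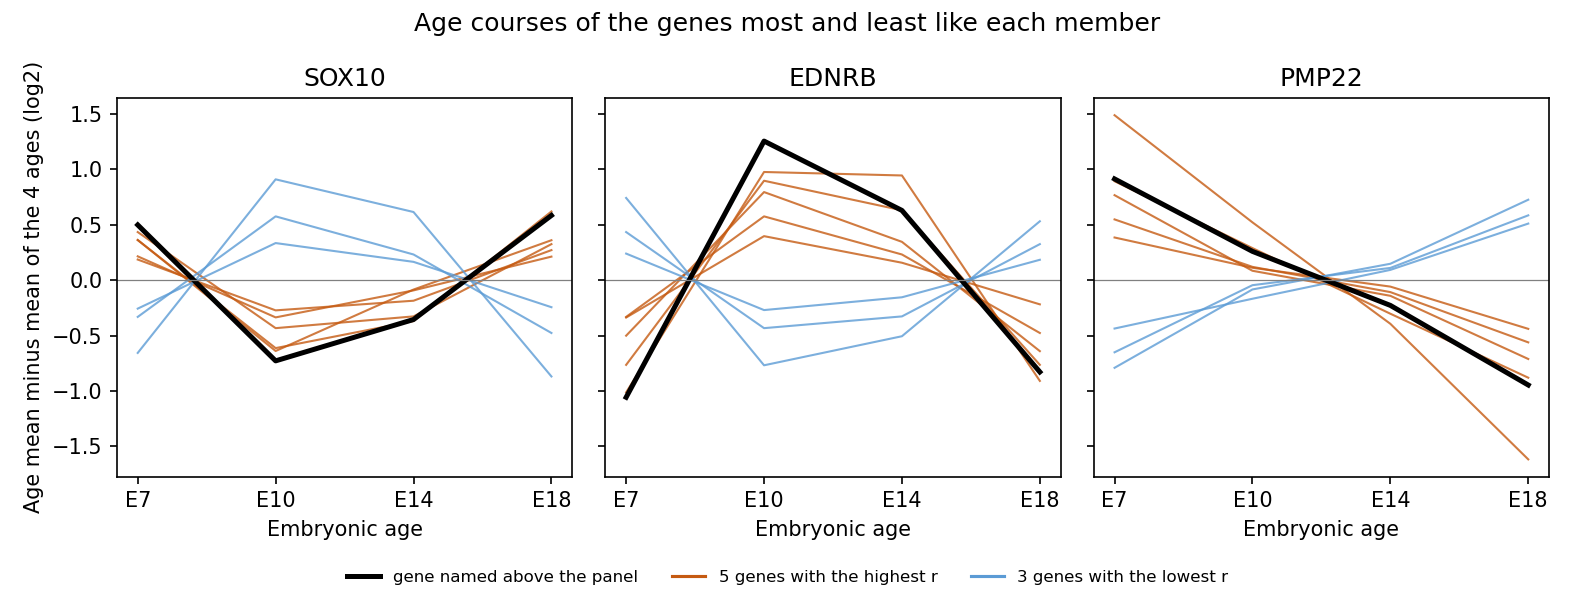
Age mean minus the mean of the 4 ages (log2, vertical axis) by embryonic age (horizontal axis) for SOX10, EDNRB and PMP22 (black), the 5 genes with the highest r (orange) and the 3 with the lowest (blue). SOX10 and its 5 most similar genes are lowest at E10, EDNRB and its 5 most similar genes are highest at E10, and PMP22 and its similar genes fall across the ages.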

How the data were processed

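The deposited table gives 1 linear intensity per probe set and array. Its mean after trimming 2% at each end was 500.1 on every array, so the authors had scaled the arrays to a common mean. The software is not given in the sources used here. The 9 deposited instrument files, of unit other, hold scanner and fluidics settings and no RNA measurement. Their presence was used as a batch. They name fluidics station 1 for E7 replicate 4 and E10 replicate 1. Station 2 was used for E10 replicates 2 and 3 and E14 replicates 1 and 2. Station 3 was used for E14 replicate 3 and E18 replicates 1 and 4. The station thus largely followed age, and its part in the differences was not tested. Array medians ran from 83.5 to 145.

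Of 38535 probe sets, 96 controls were left out. Values were quantile normalized as log2(intensity + 16). The dimmest 40% were dropped, leaving 23064. All 14 arrays were fitted with limma 3.58.1 in R 4.3.3 (lmFit, eBayes with trend), with age as factor. P-values were Benjamini-Hochberg adjusted over all tested probe sets, and "rose", "fell", "changed" or "called" means under 0.05. The pipeline was tested on simulated data. Of one-symbol probe sets, 26853 of 27168 matched the RefSeq table by Entrez ID; 177 had several symbols and 11094 none. A gene's brightest probe set stood for it.

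The members and the 15 gene lists were chosen with earlier results of these data known. Named genes were all members, all endothelin and EMP genes, SOX8 and SOX9, up to 3 genes per other list by F plus its brightest, and the 5 most and 3 least correlated with each member. Dim cell type markers were named for their level. Alternatives were the scaling, pseudocount, filter, trend, array weights, blocks, ages alone, other probe sets and leaving out each array. Leaving out the 4 arrays that stood apart was chosen after seeing the data. Figures were drawn with matplotlib 3.10.9.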

Additional observations from a re-analysis of the deposited data

Results flagged for a closer look

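In 7 of 150 groups of 4 arrays checked at E7 and E18, 1 array lay far from the other 3 relative to the range of the group. Chance gives about 1 in 20 such groups, and no probe set of SOX10, EDNRB or PMP22 was among them. ECE1 at E18 was 7.65 on replicate 4, beside 8.05 to 8.13 on the others. B3GAT1 at E18 was 5.96 on replicate 3, beside 7.01 to 7.23. ERG at E18 was 8.22 on replicate 3, beside 9.12 to 9.26. FBLN1 at E18 was 10.74 on replicate 4, beside 10.61 to 10.63. HNRNPM at E18 was 11.78 on replicate 1, beside 11.66 to 11.68. DCT at E7 was 15.42 on replicate 2, beside 15.23 to 15.26. LGR4 at E7 was 9.76 on replicate 3, beside 10.10 to 10.16.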

How the results depend on the processing

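For SOX10, EDNRB and PMP22 no difference called in the reported fit changed sign under any alternative, and the falls and rises of SOX10 and EDNRB for E10 against E7 and E18 against E14 were called under every one, as was the fall of PMP22 for E18 against E7. SOX10 for E18 against E7 was called on the deposited scale (0.26) and without the 4 arrays that stood apart (0.31). It was not called in the reported fit on the full set (0.09) or with median centring (0.48). It lay between 0.03 and 0.16 when 1 array was left out. On the 9 arrays with an instrument file, which leave 1 array at E7, it was 0.33. Those 9 arrays are the set without the 4 arrays, less E7 replicate 3, so the values of 0.31 and 0.33 are not independent. SOX10 for E14 against E10 (0.37) was not called with median centring (0.68), without a trend (0.37) or with the replicate number as a block (0.37, adjusted p = 0.0541), and ranged from 0.35 to 0.41 when 1 array was left out. EDNRB for E14 against E10 (-0.63) was called with array weights (-0.61), and at -0.63 on the ages alone, with the replicate block (adjusted p = 0.0384), on arrays with an instrument file, with that file as a block and without the 4 arrays. It was not called on the deposited scale (-0.55) or with median centring (-0.31). PMP22 for E10 against E7 (-0.65) was called with array weights (-0.81) and with probe set 2 (-0.56), and ranged from -0.86 to -0.51 when 1 array was left out. PMP22 for E18 against E14 (-0.72) was not called on arrays with an instrument file (-0.65), with that file as a block (-0.69), with probe set 2 (-0.18) or without the 4 arrays (-0.65), and ranged from -0.85 to -0.64. Among the wider spans, SOX10 for E14 against E7 was not called with median centring (-0.46), nor PMP22 for E18 against E10 with probe set 2 (-0.10). The causes were not tested.

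Counts of called probe sets moved more. For E10 against E7 they were 2864, but 1045 with median centring, 4697 with array weights and 1893 to 3262 with 1 array left out, lowest without E10 replicate 3. For E14 against E10 they were 1327, but 680 with median centring, 3731 with array weights, 3527 on the ages alone, 3669 on arrays with an instrument file, 2022 with that file as a block, 3334 without the 4 arrays and 758 to 1463 with 1 array left out. For E18 against E14 they were 4504, but 2809 with median centring. The share of rises among calls was 55.1% for E10 against E7 and 57.0% for E14 against E10, but 67.7% and 83.8% with median centring, and for E18 against E7 it was 45.2%, but 35.2% on the deposited scale. Median centring moved the median of all tested probe sets to 0.16 for E14 against E10 and -0.11 for E18 against E14, and the deposited scale moved it to -0.20 for E18 against E7. Relative to it, SOX10 for E14 against E10 was 0.52 with median centring and 0.37 in the reported fit, and EDNRB was -0.46 and -0.63. Same-numbered arrays of different ages share only a number, as their deviations correlated at -0.23 to 0.15 over 19 pairs, beside -0.28 to 0.41 over 54 pairs with different numbers.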
